A study of Saccharomyces cerevisiae with 8 samples.

Results

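The genes described here encode the cytosolic translation machinery outside the ribosome: initiation factors, elongation factors and the cytosolic aminoacyl-tRNA synthetases of the yeast Saccharomyces cerevisiae. They were chosen by name, with earlier results of these data known. In all, 45 genes were listed, of which 39 had a row in the tables, among 6170 genes. Of the listed genes, 16 of 18 initiation factors, 5 of 9 elongation factors and 18 of 18 synthetases had a row. TEF1, TEF2, EFT1, EFT2, TIF2 and TIF3 were not analysed here. All 39 members had enough counts to be tested.

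Messenger RNA was sequenced from 8 samples, 2 for each combination of strain and stage, taken from duplicate batch fermentations of xylose-fermenting strains in bioreactors. Strain XH7 has the genotype pho13::XI, gre3::PPP, XK, 3δ::XI, and strain BSGX001 has Ru-XI, XK, gre3::PPP, cox4Δ. XI is a xylose isomerase, XK the xylulokinase gene and PPP a set of pentose phosphate pathway genes. Both strains passed through adaptive evolution in xylose. The labels derive both from CEN.PK113-5D, whereas the study's methods derive XH7 from a diploid isolate and BSGX001 from the haploid CEN.PK113-5D. XH7 and BSGX001 therefore differ in inserted genes, in COX4 and, by the methods, in ploidy and background, and these cannot be told apart in a comparison of the strains. Cells of the GX stage were taken 14 h after the start on a mixture of glucose and xylose (20 g/L of each sugar), once the glucose was gone. Cells of the X stage were taken after 12 h on xylose alone (20 g/L). Sampling time and sugar history thus changed together and cannot be told apart either. The comparison of GX with X in each strain addressed how cells use xylose after glucose.

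Libraries held 5279864 to 7675099 counts. COX4 had 0 counts in all 4 BSGX001 libraries (3 counts per library is the upper limit that a count of 0 allows) and 1186 to 2680 counts in the XH7 libraries, as the genotypes state. Levels are given as RPKM, counts scaled by coding length and by library size, with TMM factors, with n = 2 in each group. They are relative to the other mRNAs in a library, so a lower level of one mRNA and a higher level of the rest cannot be told apart. The amount of mRNA per cell is not given by these levels. Differences were tested with edgeR's quasi-likelihood test in 1 fit of all 8 samples. A gene "rose" or "fell" where the p-value, adjusted by Benjamini-Hochberg over the 5921 genes tested, was 0.05 or less, at any fold. A fold change is given as log2 of GX over X, or of XH7 over BSGX001, ± a standard error. That error was derived from the log2 change and the F statistic of the test, since edgeR returns none.

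In the background, translation begins when eIF2, with GTP and the initiator tRNA, joins eIF1, eIF1A, eIF3 and eIF5 on the small ribosomal subunit and the cap-binding complex eIF4F brings the mRNA. Elongation factors then deliver charged tRNAs, move the ribosome along the mRNA and, in fungi, use the ATPase eEF3 to release spent tRNA. Each synthetase charges the tRNAs of 1 amino acid. In yeast these genes are transcribed strongly in fast growth, together with those of ribosomal proteins and ribosome biogenesis.

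Promoter sequences are given first, since a sequence motif set these genes apart from other promoters. The 300 bases before the coding start of each gene were read from the R64 reference, which belongs to a laboratory strain and may differ from the strains used. They were searched on both strands for AAAAATTTT (RRPE, the ribosomal RNA processing element), TGACTC (the core bound by Gcn4, the activator of amino acid synthesis genes), ACCCANNCA (Rap1), GATGAG (the PAC core) and for the zinc response element. RRPE matched 26 of 39 members (66.7%), against 440 of 6001 promoters of all genes (7.33%). By class, it matched 12 of 16 initiation factors, 4 of 5 elongation factors and 10 of 18 synthetases. Examples are shown because the same 9 letters recur in factors of different function. The capitals mark the match, and each window holds 25 bases on the gene's own strand, in build R64.
TIF1 (chrXI:554795-554819, plus strand): agtgactgAAAAATTTTtgcattct
NIP1 (chrXIII:895572-895596, minus strand): cgccgttgAAAAATTTTtcaatgag
RPG1 (chrII:398358-398382, minus strand): gccaggtgAAAAATTTTtcttggtg
FUN12 (chrI:76303-76327, plus strand): tgatgtgaAAAAATTTTtcaagctt
TEF4 (chrXI:282743-282767, plus strand): attgaaagAAAAATTTTtttcatca
EFB1 (chrI:142008-142032, plus strand): tttgaagaAAAAATTTTtcacattg
DED81 (chrVIII:143727-143751, minus strand): caaaagtgAAAAATTTTccatcgtg
FRS1 (chrXII:260874-260898, plus strand): aggaaatgAAAAATTTTcaatgtat
WRS1 (chrXV:137878-137902, minus strand): aaacgttgAAAAATTTTttttagtc

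The Gcn4 core was found before 6 of 18 synthetases (33.3%, among them ALA1, DED81, ILS1, THS1 and VAS1), before 0 of 16 initiation factors and before 0 of 5 elongation factors, against 466 of 6001 promoters (7.77%). The Rap1 letters matched 4 of 39 members, among them YEF3, CDC60 and VAS1, against 3.22% of all promoters. The PAC core matched 7 of 39 members (17.9%), close to its share of all promoters (19.1%). The zinc response element matched none of the 39 members and 6 of 6001 promoters. A match is a description of letters and not of binding. The whole 300-base stretches of 3 genes are shown: the paralogs YEF3 and HEF3, which went opposite ways in BSGX001, and the synthetase ILS1, which had a large fall in XH7. Capitals mark matches to any of the 5 motifs on either strand.
YEF3 (chrXII:636480-636779, plus strand): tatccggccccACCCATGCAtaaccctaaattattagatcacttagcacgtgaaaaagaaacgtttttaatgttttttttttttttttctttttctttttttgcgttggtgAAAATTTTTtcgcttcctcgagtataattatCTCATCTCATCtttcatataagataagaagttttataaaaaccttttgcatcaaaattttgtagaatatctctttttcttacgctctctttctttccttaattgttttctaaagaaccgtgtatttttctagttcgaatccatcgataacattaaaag
HEF3 (chrXIV:606019-606318, plus strand): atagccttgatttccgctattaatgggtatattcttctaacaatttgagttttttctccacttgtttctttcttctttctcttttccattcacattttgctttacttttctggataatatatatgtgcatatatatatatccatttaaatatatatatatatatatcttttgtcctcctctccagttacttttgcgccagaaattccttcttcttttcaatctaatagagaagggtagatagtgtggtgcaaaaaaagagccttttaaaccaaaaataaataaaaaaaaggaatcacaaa
ILS1 (chrII:84262-84561, minus strand): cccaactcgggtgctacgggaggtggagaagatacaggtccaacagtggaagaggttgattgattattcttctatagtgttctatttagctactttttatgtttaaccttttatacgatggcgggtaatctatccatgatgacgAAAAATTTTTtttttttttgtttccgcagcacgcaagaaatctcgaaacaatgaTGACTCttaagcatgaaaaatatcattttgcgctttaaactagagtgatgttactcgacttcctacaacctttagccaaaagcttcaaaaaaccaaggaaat

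In YEF3, the matches lay 281 to 289 bases (Rap1), 181 to 189 bases (RRPE) and 148 to 158 bases (the PAC core, in 2 overlapping copies) before the coding start. HEF3 had no match to any of the 5 motifs. In ILS1 the Gcn4 core lay 97 to 102 bases before the coding start, and RRPE was also found.

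**Figure D1:**
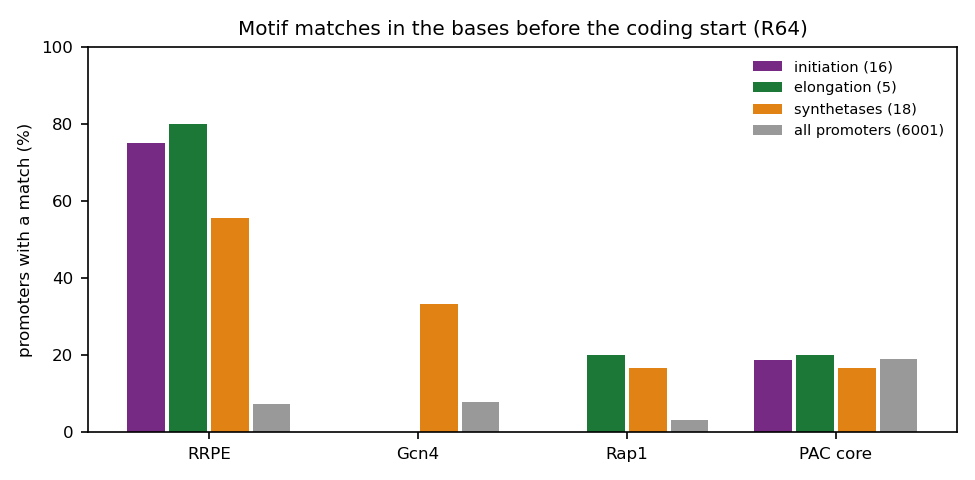
Share of promoters (%, vertical axis) with a match to each of 4 motifs in the 300 bases before the coding start, for the 16 initiation factors, 5 elongation factors, 18 synthetases and all 6001 promoters. RRPE stood at 55.6% or more in every class against 7.33% of all promoters, and the Gcn4 core was found in the synthetases and in none of the initiation or elongation factors.

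Near-identical copies limit what can be said of some members. TIF1, which encodes the RNA helicase eIF4A, differs from TIF2, its copy without a row, at 6 of 1188 coding bases and shares a run of 644 identical bases with it. TIF1 values may therefore hold reads of both genes. HYP2, which encodes eIF5A, differs from its paralog ANB1, which has a row, at 43 of 474 bases, with no identical run over 43 bases. The stretches below cover coding bases 139 to 228 of TIF1 and TIF2 and 289 to 378 of HYP2 and ANB1, those with the most differences, and show how little or how much separates each pair. Capitals mark differing bases.
TIF1: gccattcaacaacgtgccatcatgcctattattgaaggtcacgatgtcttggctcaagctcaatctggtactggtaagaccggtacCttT
TIF2: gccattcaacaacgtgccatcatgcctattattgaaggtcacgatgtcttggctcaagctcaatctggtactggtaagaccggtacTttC
HYP2: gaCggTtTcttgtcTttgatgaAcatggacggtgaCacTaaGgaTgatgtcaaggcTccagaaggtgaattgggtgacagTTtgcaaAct
ANB1: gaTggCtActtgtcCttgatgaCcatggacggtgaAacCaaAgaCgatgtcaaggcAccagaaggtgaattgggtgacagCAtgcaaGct

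TEF1 differs from TEF2 at 2 of 1377 bases and EFT1 from EFT2 at 4 of 2529. YEF3 and HEF3, at 74.78% identity, share no identical run over 41 bases in an alignment without gaps. Rows of 7 members have an untagged open reading frame of a neighbouring systematic number beside them on the other strand (SUI3, FUN12, HEF3, HYP2, GLN4, ILS1 and MES1), and the strand of counting is not given in the sources used here. At the HYP2 locus that row, YEL034C-A, had 4830 and 6200 RPKM in XH7 GX libraries, near the level of HYP2 itself.

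Across the whole set, the GX stage had lower levels than the X stage for most members. In XH7, 23 of 39 members fell and 2 rose (percentages of all genes that fell and rose: 22.0% and 26.6%), with a median log2 change of -0.37 over the members and 0.04 over all genes. In BSGX001, 36 of 39 fell and 1 rose, against 24.7% and 23.0% of all genes, with a median of -0.62 over the members and -0.02 over all genes. All 18 synthetases fell in XH7 and 17 of 18 in BSGX001. With library totals, 14 of 18 fell in XH7 and 17 of 18 in BSGX001. Of the 16 initiation factors, 4 fell in XH7 and 15 in BSGX001. There were 22 members that fell in both strains, 17 of them synthetases. The share of all genes that fell in both was not counted and is at most the 22.0% that fell in XH7. In XH7, both GX libraries lay below both X libraries for 29 members and above them for 6, against 34.7% and 39.9% of all genes. In BSGX001 these counts were 38 and 1, against 41.1% and 38.0% of all genes. At 2-fold or more, TEF4 was the member that fell in BSGX001 (2.03% of all genes fell so far) and 5 members fell in XH7 (5.88%), and HEF3 rose in both strains (6.57% of all genes in XH7 and 6.76% in BSGX001). Scaling by library totals in place of TMM moved the median of all genes up by 0.198 in the XH7 comparison. It left 16 members lower and 5 higher there, and 36 lower and 1 higher in BSGX001.

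**Figure D2:**
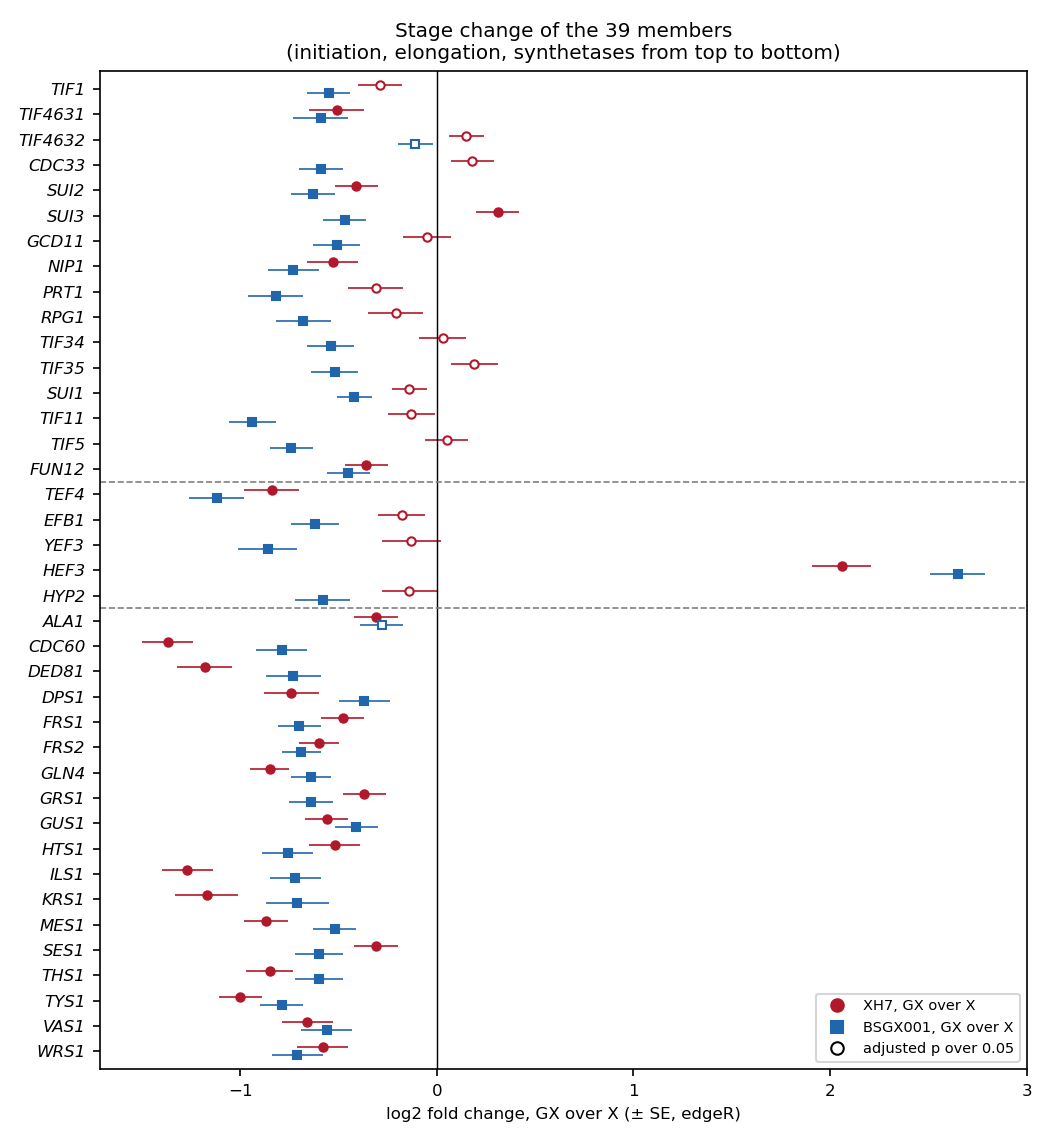
Log2 fold change, GX over X (horizontal axis, ± SE derived from edgeR's F statistic), of the 39 members in XH7 (red circles) and BSGX001 (blue squares). Filled symbols mark an adjusted p of 0.05 or less. All synthetases lie left of zero in both strains, most initiation factors do so as filled symbols only in BSGX001, and HEF3 lies far to the right in both.

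The share of all counts taken by the 39 members was 2.36% and 2.63% in XH7 GX and 2.78% and 2.81% in XH7 X libraries. In BSGX001 it was 1.34% in both GX libraries and 2.20% and 1.88% in X libraries. Synthetases took 0.707% and 0.736% of counts in XH7 GX, against 1.04% and 1.09% in XH7 X, whereas initiation factors took 0.709% and 0.764%, against 0.719% and 0.706%. In BSGX001 both classes took less in GX: synthetases 0.488% and 0.486% in GX and 0.792% and 0.676% in X, initiation factors 0.398% in both GX libraries and 0.626% and 0.549% in X. The shares of initiation factors in XH7 GX and X thus overlapped, while those of synthetases in XH7, and of both classes in BSGX001, did not.

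The synthetases fell in both strains. Their median log2 change was -0.70 in XH7, with 5 at 2-fold or more, and -0.67 in BSGX001, with none at 2-fold. With library totals the medians were -0.50 in XH7 and -0.65 in BSGX001. On leaving out 1 library they ran from -0.83 to -0.65 in XH7 and from -0.75 to -0.53 in BSGX001. The difference of the changes passed for 1 of 18, a negative one, with TMM factors. With library totals it passed for 2 of 18, both positive. CDC60, the cytosolic leucyl-tRNA synthetase, had 83.2 and 83.8 RPKM in XH7 GX, against 202 and 229 in XH7 X, and 64.8 and 58.4 RPKM in BSGX001 GX, against 116 and 97.2 in BSGX001 X. It fell in both strains, by 1.37 ± 0.13 on the log2 scale in XH7 (adjusted p = 5.52e-05, edgeR) and by 0.79 ± 0.13 in BSGX001 (adjusted p = 0.00111, edgeR). The groups did not overlap in either strain.

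ILS1, which charges isoleucine tRNAs, had 132 and 148 RPKM in XH7 GX, against 314 and 359 in XH7 X. In BSGX001 it had 128 and 125 RPKM in GX, against 227 and 189.5 in X. Its log2 change was -1.27 ± 0.13 in XH7 and -0.72 ± 0.13 in BSGX001. The strains lay close together in GX, whereas in X both XH7 libraries stood well above both of BSGX001. KRS1, the lysyl-tRNA synthetase, had 227 and 244 RPKM in XH7 GX, against 489 and 568 in XH7 X, and 110.3 and 118 RPKM in BSGX001 GX, against 218 and 156 in BSGX001 X. It fell by 1.17 ± 0.16 in XH7 and by 0.71 ± 0.16 in BSGX001. TYS1, the tyrosyl-tRNA synthetase, had 173 and 159.8 RPKM in XH7 GX, against 328 and 338 in XH7 X, and 126 and 134 in BSGX001 GX, against 242 and 209 in BSGX001 X. It fell by 1.00 ± 0.11 in XH7 and, with CDC60, had the largest synthetase fall in BSGX001 (-0.79 ± 0.11).

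DED81, which charges asparagine tRNAs, fell by 1.18 ± 0.14 in XH7 and by 0.73 ± 0.14 in BSGX001. The smallest synthetase falls in XH7 were those of SES1, the seryl-tRNA synthetase, and ALA1, the alanyl-tRNA synthetase (both -0.31 ± 0.11). DED81 had the highest level of the synthetases in XH7 X and in both BSGX001 groups, whereas SES1 had the highest mean over all samples. SES1 had 440.1 and 466 RPKM in XH7 GX, against 554 and 571 in XH7 X. In BSGX001 it had 191 and 192 RPKM in GX, against 313 and 268 in X. The XH7 calls of SES1 (adjusted p = 0.0472, edgeR) and ALA1 (adjusted p = 0.0449, edgeR) were lost with library totals, with limma on FPKM and with a replicate block. SES1 also lost its call without any 1 XH7 or BSGX001 GX library, and ALA1 without any 1 of these except XH7 GX replicate 2. ALA1 was the only synthetase that missed the threshold in BSGX001 (-0.28 ± 0.11, adjusted p = 0.0644, edgeR). DPS1, the aspartyl-tRNA synthetase, fell by 0.37 ± 0.13 there, a call lost under RLE size factors, limma, a fit of the compared groups and the replicate block, and without either BSGX001 GX library, either XH7 X library or BSGX001 X replicate 1 (-0.19).

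Of the other synthetases, the log2 changes in XH7 ran from -0.37 (GRS1, glycyl) to -0.87 (MES1, methionyl), with GLN4 (glutaminyl) and THS1 (threonyl) both at -0.85, DPS1 at -0.74, VAS1 (valyl) at -0.66, FRS2 at -0.60, WRS1 (tryptophanyl) at -0.58, GUS1 (glutamyl) at -0.56, HTS1 (histidyl) at -0.52 and FRS1 at -0.48. In BSGX001 the same genes ran from -0.37 (DPS1) to -0.76 (HTS1). Their order thus differed between the strains. Over the 18 synthetases, Pearson's correlation of the log2 changes in the 2 strains was 0.47 (Spearman 0.46), a description across genes that share libraries within each strain. The 6 synthetases with the Gcn4 core before them had a median change of -1.01 in XH7, against -0.59 for the 12 without it, and of -0.66 in BSGX001, against -0.67 for the 12. The ranges in XH7 overlapped, from -1.27 (ILS1) to -0.31 (ALA1) with the core and from -1.37 (CDC60) to -0.31 (SES1) without it. Among tested genes with a promoter read from R64, members included, 35.2% of the 438 with that core and 21.6% of the 5024 without it fell in XH7. In BSGX001 these shares were 30.4% with the core and 25.2% without it.

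**Figure D3:**
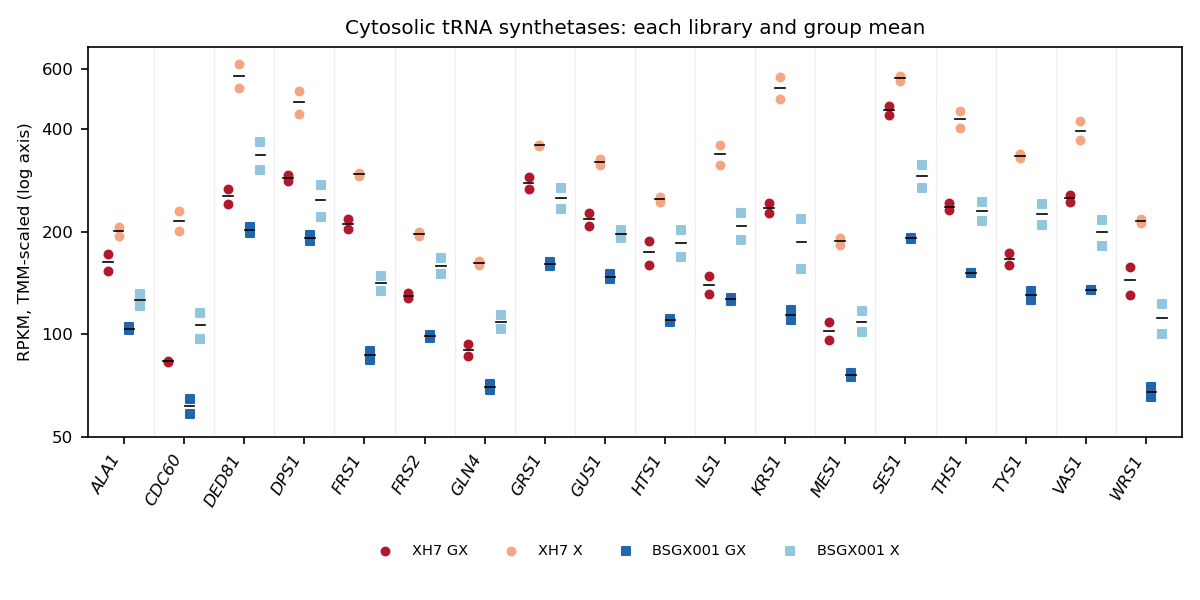
RPKM (log axis) of the 18 cytosolic synthetases in each library (symbols) with the group mean (black bar), in the order XH7 GX, XH7 X, BSGX001 GX and BSGX001 X for each gene. Every GX library lies below both X libraries of its strain, and XH7 lies above BSGX001 at the same stage.

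The enzyme for phenylalanine has 2 subunits from separate genes, FRS1 (beta) and FRS2 (alpha). FRS1 had 204 and 218 RPKM in XH7 GX, against 297 and 292 in XH7 X, and 89.7 and 84.0 in BSGX001 GX, against 149 and 134 in BSGX001 X. Per 100 RPKM of FRS2, FRS1 stood at 155 and 171 in XH7 GX and 149 and 150 in XH7 X, but at 91.8 and 84.1 in BSGX001 GX and 88.8 and 88.9 in BSGX001 X. The ratio differed between the strains at both stages without overlap, and changed little with stage.

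Of the other cytosolic synthetase genes YDR341C, YHR020W, CRS1 and GRS2 and the synthetase cofactor ARC1, 4 of 5 fell in each strain, against 22.0% of all genes in XH7 and 24.7% in BSGX001. In GX, 1 of these 5 was higher and 1 lower in XH7 than in BSGX001, against 33.4% and 32.6% of all genes. The largest falls were those of YDR341C, the arginyl enzyme, in both strains (-1.37 in XH7 and -0.77 in BSGX001), and of YHR020W, the prolyl enzyme, in XH7 (-1.07) and CRS1, the cysteinyl enzyme, in BSGX001 (-0.74). GRS2, a second glycyl-tRNA synthetase gene, had a log2 change of 0.20 in both strains and did not pass.

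Of the 16 initiation factors, 4 fell in XH7 (TIF4631, SUI2, NIP1 and FUN12), 1 rose (SUI3) and 11 did not pass, with a median log2 change of -0.14. The 4 falls are a share near the 22.0% of all genes that fell in XH7, and on leaving out 1 library they ran from 1 (without XH7 GX replicate 1) to 6 (without either BSGX001 X library), with 2 without XH7 X replicate 2. The XH7 median changed sign to 0.06 with library totals, where 1 fell and 4 rose. In BSGX001, 15 of 16 fell, against 24.7% of all genes, with a median of -0.57. There, 15 fell under each of the 3 other scalings, but 9 without BSGX001 GX replicate 1 and 11 without BSGX001 GX replicate 2. The log2 change in XH7 was above that in BSGX001 for 16 of 16 initiation factors, and the difference of the changes passed the test for 6 of them, against 15.4% of all genes (11 with library totals, and 3 without BSGX001 GX replicate 1 to 9 without BSGX001 X replicate 2). Of 9 other initiation genes with a row, the difference passed for 1. Its median over these 9 was -0.02, against 0.47 over the 16 initiation factors and 0.05 over all genes. Over all 39 members, 7 differences were positive and 1 negative (14.2% of all genes), and none reached 2-fold (4.90% of all genes upward and 6.67% downward).

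The cap-binding complex eIF4F joins the cap-binding protein CDC33 (eIF4E), the helicase TIF1 (eIF4A) and a scaffold, TIF4631 or TIF4632 (eIF4G). TIF1, the most abundant initiation factor, had 1477 and 1514 RPKM in XH7 GX, against 1803 and 1847 in XH7 X, and 881 and 869.9 in BSGX001 GX, against 1358 and 1206 in BSGX001 X. Its log2 change was -0.29 ± 0.11 in XH7, which did not pass (adjusted p = 0.063, edgeR), and -0.55 ± 0.11 in BSGX001, which did (adjusted p = 0.00401, edgeR). CDC33 had 735 and 795 RPKM in XH7 GX, against 691 and 655 in XH7 X, and 384 and 404 in BSGX001 GX, against 612 and 571 in BSGX001 X. It fell in BSGX001 (-0.59 ± 0.11) and had a change of 0.18 ± 0.11 in XH7 that did not pass, and the 2 changes differed by 0.77 ± 0.15 (adjusted p = 0.00526, edgeR).

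The 2 scaffold genes separated from each other. TIF4631 had 108 and 119 RPKM in XH7 GX, against 154 and 168 in XH7 X, and 73.2 and 67.7 in BSGX001 GX, against 119 and 92.4 in BSGX001 X. It fell in both strains (-0.51 ± 0.14 in XH7 and -0.59 ± 0.14 in BSGX001). TIF4632, the least abundant initiation factor, had 58.6 and 54.7 RPKM in XH7 GX, against 50.2 and 51.6 in XH7 X, and 29.1 and 28.8 in BSGX001 GX, against 31.1 in both BSGX001 X libraries. Its changes of 0.15 ± 0.09 in XH7 and -0.11 ± 0.09 in BSGX001 did not pass. Per 100 RPKM of TIF4631, TIF4632 stood at 54.1 and 46.0 in XH7 GX, against 32.5 and 30.7 in XH7 X, and at 39.7 and 42.5 in BSGX001 GX, against 26.1 and 33.7 in BSGX001 X. The ratio was thus higher in GX in both strains, without overlap of the libraries.

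The 3 subunits of eIF2, which carries the initiator tRNA, did not move as a block in XH7. SUI3 (beta) had 634 and 649.5 RPKM in XH7 GX, against 502 and 534 in XH7 X, and 247 and 251 in BSGX001 GX, against 366 and 325 in BSGX001 X. It rose in XH7 (0.31 ± 0.11, adjusted p = 0.0382, edgeR), fell in BSGX001 (-0.47 ± 0.11), and the changes differed by 0.78 ± 0.15 (adjusted p = 0.00523, edgeR). The rise in XH7 was the weaker call: it was lost with other size factors, with DESeq2 and on leaving out any 1 of 6 libraries (all but the BSGX001 X ones), whereas the difference between the strains held under each of these. SUI2 (alpha) fell in XH7 (-0.41 ± 0.11) and in BSGX001 (-0.63 ± 0.11). GCD11 (gamma) had 302 and 357 RPKM in XH7 GX, which spanned the 342 RPKM of both XH7 X libraries, and fell in BSGX001, with 105.4 and 110.1 in GX, against 161 and 146 in X. SUI2 per 100 RPKM of GCD11 was 50.3 and 50.9 in XH7 GX and 66.0 and 63.5 in XH7 X, and 88.1 and 93.2 in BSGX001 GX and 96.4 and 101 in BSGX001 X.

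The 5 members that encode subunits of eIF3, the scaffold of the initiation complex on the small subunit, all fell in BSGX001. Of these, NIP1 alone passed in XH7. HCR1 (eIF3j), from the list of other initiation genes, went otherwise. It fell in XH7 (-0.41 ± 0.15, adjusted p = 0.0429, edgeR) and did not pass in BSGX001 (-0.14 ± 0.15). NIP1 had 102 and 123 RPKM in XH7 GX, against 161 and 165 in XH7 X, and 64.2 and 62.7 in BSGX001 GX, against 114 and 96.3 in BSGX001 X. Its log2 changes were -0.53 ± 0.13 in XH7 and -0.73 ± 0.13 in BSGX001. PRT1 had 147 and 163 RPKM in XH7 GX, against 193 in both XH7 X libraries, and 72.5 and 67.1 in BSGX001 GX, against 139 and 107 in BSGX001 X. Its fall in BSGX001 (-0.82 ± 0.14) passed and its change in XH7 (-0.31 ± 0.14, adjusted p = 0.0828, edgeR) did not. TIF35 had 443 and 516 RPKM in XH7 GX, against 437 and 406 in XH7 X, and 215 in both BSGX001 GX libraries, against 330.2 and 286 in BSGX001 X. The changes of TIF35 differed between the strains by 0.70 ± 0.17 and those of TIF34 by 0.56 ± 0.16, while those of the large subunits NIP1, PRT1 and RPG1 differed by 0.20, 0.50 and 0.47 and did not pass.

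Of the factors that select the start codon and join the subunits, TIF11 (eIF1A) fell most in BSGX001. TIF11 had 552 and 577 RPKM in XH7 GX, against 592 and 646 in XH7 X, and 216 and 248 in BSGX001 GX, against 486 and 405 in BSGX001 X. Its log2 change was -0.13 ± 0.12 in XH7, which did not pass, and -0.94 ± 0.12 in BSGX001 (adjusted p = 0.000425, edgeR), and the difference of 0.81 ± 0.17 was the largest among the members. TIF5 (eIF5), the GTPase activator of eIF2, had 291 and 309.5 RPKM in XH7 GX, against 291 and 287 in XH7 X, and 128 and 121 in BSGX001 GX, against 225 and 191 in BSGX001 X. It fell in BSGX001 by 0.74 ± 0.11, and the changes differed by 0.79 ± 0.16. FUN12 (eIF5B) fell in both strains (-0.36 ± 0.11 in XH7 and -0.45 ± 0.11 in BSGX001) and SUI1 (eIF1) in BSGX001 (-0.42 ± 0.09).

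**Figure D4:**
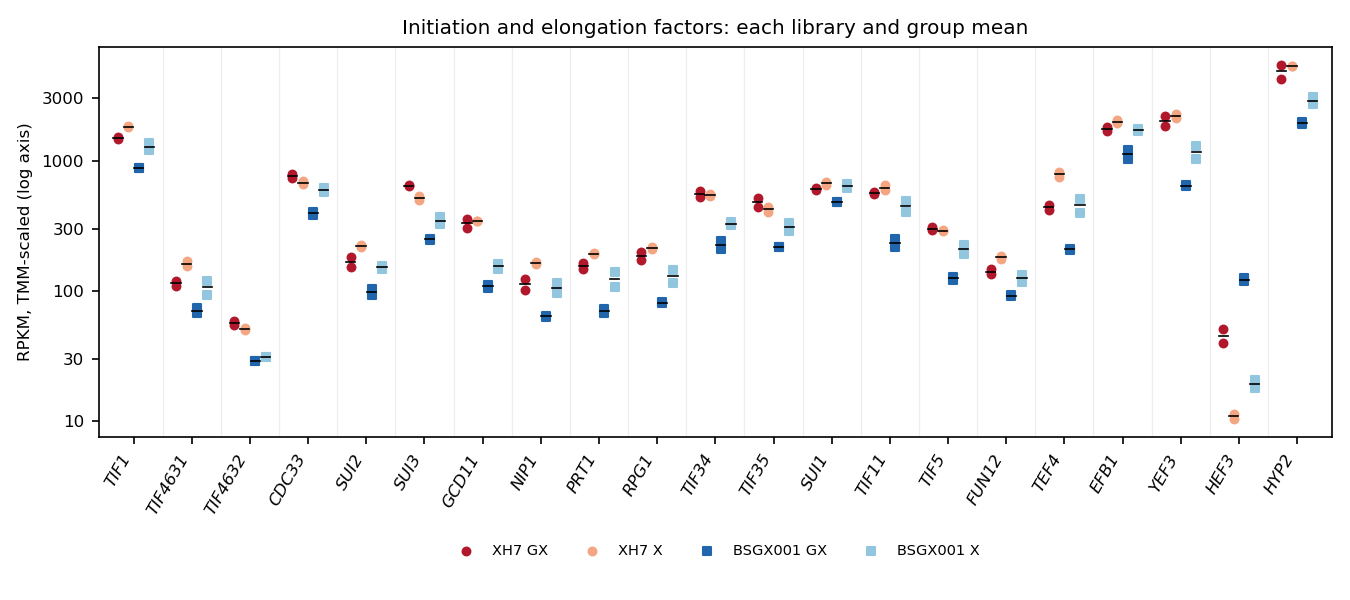
RPKM (log axis) of the 16 initiation and 5 elongation factors in each library (symbols) with the group mean (black bar), in the order XH7 GX, XH7 X, BSGX001 GX and BSGX001 X for each gene. BSGX001 GX is the lowest group for most factors, and HEF3 is highest in BSGX001 GX (118 and 124 RPKM). For most factors the XH7 stages lie closer together than the BSGX001 stages, though TEF4 and HEF3 lie far apart in XH7 too.

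Of 9 other initiation genes with a row, 4 fell in each strain, against 22.0% of all genes in XH7 and 24.7% in BSGX001. In XH7, 2 fell with library totals and without XH7 GX replicate 1, either XH7 X library or either BSGX001 GX library. In BSGX001, 2 fell without BSGX001 X replicate 1 and none without BSGX001 GX replicate 2, in edgeR. GCN3 (eIF2B alpha) had the largest fall in both strains (-0.99 in XH7 and -0.53 in BSGX001). Next came GCD2 in XH7 (-0.46) and TIF6 in BSGX001 (-0.50). Among 6 genes of translational control, none fell in XH7 and 2 rose, GCN2 (0.33) and EAP1 (0.31), a share near the 26.6% of all genes. None of the 6 rose without either XH7 X library, and 1 rose with upper-quartile factors and without XH7 GX replicate 2 or either BSGX001 GX library. In BSGX001, 3 of the 6 fell, against 24.7% of all genes, with CAF20, an eIF4E-binding repressor, at -0.75 and GCN20 at -0.60. Leaving out any 1 library other than the XH7 GX ones and BSGX001 X replicate 2 left 2 falls. GCN4 itself had 4901 and 4688 RPKM in XH7 GX, against 4945 and 5302 in XH7 X, and 2428 and 2424 in BSGX001 GX, against 2614 and 2282 in BSGX001 X, and its stage changes (-0.10 and -0.01) did not pass. GCN4 is controlled mainly at translation, which these data do not measure.

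Among elongation factors, HEF3 rose in both strains while the others had lower means in GX. HEF3 is a paralog of YEF3, which encodes the main eEF3. HEF3 had 39.5 and 50.7 RPKM in XH7 GX, against 11.4 and 10.25 in XH7 X, and 118 and 124 in BSGX001 GX, against 17.8 and 20.7 in BSGX001 X. It rose 4.17-fold in XH7 (log2 2.06 ± 0.15, adjusted p = 1.41e-05, edgeR) and 6.28-fold in BSGX001 (log2 2.65 ± 0.14, adjusted p = 4.97e-06, edgeR). The groups were far apart in both strains, and the call held under each alternative. The 2 changes differed by -0.59 ± 0.20, which did not pass (adjusted p = 0.0509, edgeR).

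YEF3 had 1837 and 2197 RPKM in XH7 GX, which overlapped the 2140 and 2278 of XH7 X, and 649 and 633 in BSGX001 GX, against 1301 and 1034 in BSGX001 X. Its change did not pass in XH7 (-0.13 ± 0.15) and it fell in BSGX001 (-0.86 ± 0.15, adjusted p = 0.00167, edgeR). Per 100 RPKM of YEF3, HEF3 stood at 2.15 and 2.31 in XH7 GX, against 0.531 and 0.450 in XH7 X, and at 18.2 and 19.6 in BSGX001 GX, against 1.37 and 2.0 in BSGX001 X. HEF3 mRNA was thus a minor form in every group. Its row sits beside YNL013C on the other strand, with which reads cannot be told apart here. Adding the counts of that row left log2 changes of 2.04 in XH7 and 2.65 in BSGX001, and their difference, -0.61, then passed (adjusted p = 0.0367, edgeR).

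TEF4 (eEF1 gamma) fell in both strains. It had 418 and 458 RPKM in XH7 GX, against 819 and 754 in XH7 X, and 207 and 209 in BSGX001 GX, against 506 and 398 in BSGX001 X. The log2 changes were -0.84 ± 0.14 in XH7 and -1.12 ± 0.14 in BSGX001, the only member fall of 2-fold or more in BSGX001. CAM1, its paralog in the other elongation list, stood at 59.1 and 49.8 per 100 RPKM of TEF4 in XH7 GX, against 38.3 and 41.6 in XH7 X, and at 187 and 189 in BSGX001 GX, against 63.5 and 84.0 in BSGX001 X. CAM1 was thus above TEF4 in BSGX001 GX and below it in the other 3 groups. EFB1 (eEF1B alpha, the exchange factor) fell in BSGX001 (-0.62 ± 0.12) and did not pass in XH7 (-0.18 ± 0.12).

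HYP2, which encodes the hypusine-containing factor eIF5A, was the most abundant member. It had 4244 and 5452 RPKM in XH7 GX, which spanned the 5364 and 5343 of XH7 X, and 1963 and 1903 in BSGX001 GX, against 3071 and 2712 in BSGX001 X. It fell in BSGX001 (-0.58 ± 0.14, adjusted p = 0.00888, edgeR) and did not pass in XH7 (-0.14 ± 0.14). ANB1, the form of eIF5A known from low oxygen, stood at 3.08 and 2.38 per 100 RPKM of HYP2 in XH7 GX, against 7.84 and 7.11 in XH7 X, and at 0.187 and 0.369 in BSGX001 GX, against 0.252 and 0.132 in BSGX001 X. ANB1 fell in XH7 (log2 -1.62) and stood at 0.369 per 100 or less in BSGX001. In the list of elongation paralogs, termination factors and related genes, 5 of 6 fell in XH7 and 4 of 6 in BSGX001, against 22.0% and 24.7% of all genes. In XH7, 2 fell and 1 rose with library totals, and 3 fell without XH7 GX replicate 1 or XH7 X replicate 2. STM1, a ribosome-binding protein, fell in both strains (-1.03 in XH7 and -0.77 in BSGX001), as the second largest fall of the list after ANB1 in XH7 and the largest in BSGX001. SUP45, the release factor that reads stop codons, fell in BSGX001 (-0.58).

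XH7 had the higher level of most members at both stages. In GX, 36 of 39 were higher in XH7 and 1 lower, against 33.4% and 32.6% of all genes, with a median log2 difference of 0.79. In X, 35 were higher and 1 lower, against 26.5% and 29.0% of all genes, with a median of 0.67. There were 33 members higher in XH7 at both stages, and HEF3 was the member lower at both (-1.43 ± 0.13 in GX and -0.84 ± 0.15 in X). The shares of all genes at both stages were not counted. They are at most the 26.5% higher and 29.0% lower in X. The libraries of the strains did not overlap for 39 members in GX, 38 of them higher and 1 lower in XH7 (43.1% and 41.7% of all genes), and in X for 37 higher and 1 lower (37.9% and 41.4%). At 2-fold or more, 15 were higher in GX (10.8% of all genes) and 4 in X (6.20%), and HEF3 was the one lower in GX (13.2%), with none lower in X (9.32%). Library totals moved the median of all genes by -0.287 in X and -0.105 in GX, and left 25 members higher in XH7 in X and 35 in GX. The strain comparisons share libraries with the stage comparisons and are not separate evidence.

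The largest differences in GX were those of YEF3 (1.65 ± 0.15), GCD11 (1.61 ± 0.12) and SUI3 (1.36 ± 0.11), which were 3.14-, 3.05- and 2.57-fold higher in XH7. In X they were those of KRS1 (1.5 ± 0.16), GCD11 (1.15 ± 0.12) and FRS1 (1.06 ± 0.11). GCD11 thus stood high in XH7 at both stages, with no overlap between XH7 libraries (302 to 357 RPKM) and BSGX001 libraries (105.4 to 161 RPKM). DED81 (0.33) and ILS1 (0.14) did not differ past the threshold in GX, nor did EFB1 (0.21), CDC33 (0.19) and SUI1 (0.07) in X. The strain difference was larger in GX than in X for 16 of 16 initiation factors and smaller in GX than in X for 12 of 18 synthetases. By construction this restates the difference of the stage changes and is not a further result.

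Outside the members, and among tested genes with a promoter read from R64, 394 had RRPE before them and 5029 did not. In XH7, 27.7% of those with a match and 22.1% of those without it fell. In BSGX001, 50.8% of those with a match and 23.1% of those without it fell. In GX, 264 of the 394 were higher in XH7 than in BSGX001, as were 1561 of the 5029. Among the members, 26 of 26 with a match fell in BSGX001, as did 10 of 13 without it. In XH7, 15 of 26 members with a match fell and 8 of 13 without it. These counts carry no test.

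Separate genes for mitochondrial synthetases and factors, which serve translation of the mRNAs of the mitochondrial genome, did not follow the cytosolic genes in XH7. The members ALA1, GRS1, HTS1 and VAS1, which fell in XH7, serve both compartments. The mitochondrial list holds no separate gene for their amino acids. Of 14 mitochondrial synthetases, 11 rose in XH7 and none fell (median log2 0.59), against 26.6% and 22.0% of all genes. In BSGX001, 1 rose and 5 fell (median -0.30), against 23.0% and 24.7% of all genes. These 5 falls became 8 with upper-quartile factors and 1 without either BSGX001 GX library or BSGX001 X replicate 1 (1 to 7 over all libraries left out), and the rise was lost with upper-quartile factors, without any 1 BSGX001 library and without either XH7 X library. The largest rises in XH7 were those of MSK1 (lysyl, 1.22) and SLM5 (asparaginyl, 1.02). In BSGX001 the largest falls were those of MSM1 (methionyl, -0.54) and DIA4 (-0.41), and the rise was that of MSK1 (0.42). All 6 mitochondrial translation factors rose in XH7 (median 0.89), with the initiation factor IFM1 at 1.55 and the release factor MRF1 at 1.13. In BSGX001, MEF2 rose (0.74) and MRF1 (-0.52) and MEF1 (-0.34) fell, and the 2 falls became 1 to 3 with another scaling or on leaving out 1 library.

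The XH7 change minus the BSGX001 change was positive and past the threshold for 11 of 14 mitochondrial synthetases and 5 of 6 mitochondrial factors, against 15.4% of all genes. In X, all 14 synthetases and all 6 factors were lower in XH7 than in BSGX001, against 29.0% of all genes (median log2 differences of -0.96 and -1.06). All 18 cytosolic synthetases were higher there, against 26.5% of all genes. In GX, 3 of the 14 mitochondrial synthetases were higher and 6 lower in XH7, against 33.4% and 32.6% of all genes. BSGX001 lacks COX4, a subunit of the respiratory chain, and its part in these differences was not tested. The rise of the mitochondrial synthetases in XH7 depended on the libraries: 7 rose without XH7 GX replicate 1, 6 without XH7 X replicate 1 and 7 without XH7 X replicate 2. Of the differences between the changes of the strains, 7 to 12 synthetases and 3 to 5 factors passed on leaving out 1 library. The medians of both stayed positive in each of these fits and under each scaling.

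**Figure D5:**
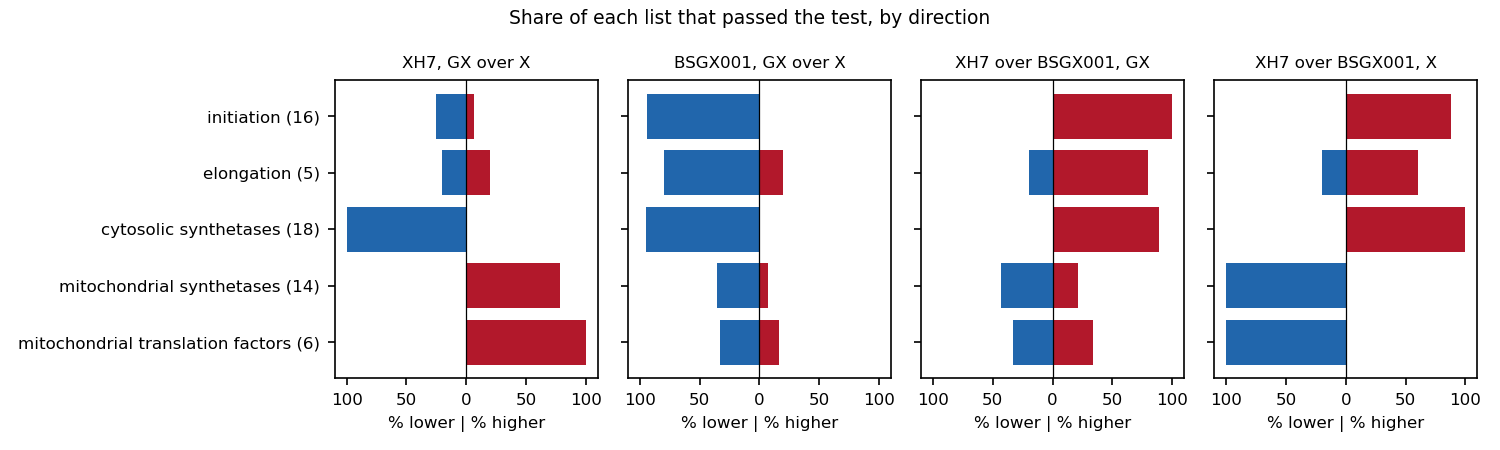
Share of each list (horizontal axis, %) that was lower (blue, left) or higher (red, right) at an adjusted p of 0.05 or less, in the 2 stage comparisons and the 2 strain comparisons, with the number of genes tested in parentheses. Cytosolic synthetases fell in both strains, initiation factors fell mainly in BSGX001, and mitochondrial synthetases and factors rose in XH7.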

How the data were processed

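RNA from 8 samples, 2 fermentations for each of 4 combinations of strain and stage, was extracted with a Trizol kit by the authors, selected with oligo(dT) beads and sequenced on an Illumina instrument. The submitters' processing notes name build R64, while the aligner, counter and strand setting are not given there or in the methods. For each sample the authors deposited an expected count per gene (an estimated, unscaled count, rounded here to whole numbers), an FPKM value (which the authors normalised for length and depth) and the length of each gene. Tables of the authors' own comparisons (mean FPKM, log2 ratios and a probability score) were not used. A gene missing from a table was taken as 0 counts.

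Identifiers were matched to R64 by locus tag (5591 of 6170), and all 39 members had the R64 coding length. Groups were compared with the quasi-likelihood test of edgeR 4.0.16 in R 4.3.3, with TMM factors of 0.857 to 1.08 and filterByExpr at a minimum count of 10, which kept 5921 genes. One fit of 4 groups gave both stage comparisons, both strain comparisons and the difference of the stage changes. Libraries of 5279864 to 7675099 counts set the depth. Residual spread came from 2 samples per group. In no group were the 2 replicates alike enough to be 1 library (chi-square per degree of freedom of 4.09 to 37.59). The replicates of BSGX001 X differed most (37.59) and those of BSGX001 GX least (4.09). Pairs of libraries from different groups were not compared in this way. The scripts were checked on simulated counts. Copies were compared with BLAST+ 2.17.0.

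Alternatives were RLE and upper-quartile factors, library totals, no filter or a CPM of 10 in 2 samples, DESeq2 1.42.0, limma 3.58.1 on log2(FPKM + 1) and log2(FPKM + 0.1), a replicate block, a fit of the compared groups only, an adjusted p of 0.01, a 2-fold limit and leaving out each library. Adding 7 rows on the other strand, and a crossed replicate block, were chosen after seeing the data. Adding up near-identical pairs was not possible with 1 row per pair. The members and gene lists were chosen with earlier results of these data known. Values in each sample are given for the most abundant member of each class, the 2 largest stage changes in each class of each strain, up to 6 members past the test of the difference of changes, the 3 largest strain differences in each direction, paralog pairs and members that passed against their class. Genes of other lists were limited to 2 per list and direction in each stage comparison. Those named outside these rules (GCN4, CAM1, GRS2 and HCR1) were chosen after their values were seen. Sequences are from RefSeq, build R64. One promoter sequence is not reported here.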

Additional observations from a re-analysis of the deposited data

Results flagged for a closer look

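For 8 members the stage change differed between XH7 and BSGX001 by the test of the difference itself (edgeR, adjusted p of 0.05 or less). Of all 5921 genes, 15.4% passed with a positive and 14.2% with a negative difference. The difference of the log2 changes, XH7 minus BSGX001, was 0.81 for TIF11, 0.79 for TIF5, 0.78 for SUI3, 0.77 for CDC33, 0.73 for YEF3, 0.70 for TIF35, 0.56 for TIF34 and -0.58 for CDC60. At an unadjusted p under 0.05, 15 members passed. The calls of CDC33, SUI3 and TIF5 held under each other scaling, filter and tool, under the replicate block and without any 1 library. TIF11 lost its call without BSGX001 GX replicate 1, and TIF35 without XH7 X replicate 2 or either BSGX001 GX library. TIF34 and YEF3 each lost it on leaving out any 1 of 6 libraries, and YEF3 also under the replicate block. CDC60 lost it on leaving out any 1 of 6 libraries, with library totals, with both limma fits and with the replicate block.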

How the results depend on the processing

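No member that passed in any comparison changed direction under an alternative. Of 143 calls of single members, 25 and 24 were lost with limma on log2(FPKM + 1) and log2(FPKM + 0.1), 19 with library totals, 6 with the replicate block, and 25 and 21 without BSGX001 GX replicate 1 or 2.

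Class medians crossed zero when no composition factor was used. In XH7, GX over X, the initiation median was 0.06 with library totals and 0.07 with both limma fits, and the elongation median 0.05 in all 3. The synthetase median of the difference of changes was 0.01 with library totals, 0.00 with limma on log2(FPKM + 1) and 0.01 with log2(FPKM + 0.1). Library totals moved the median of all genes by 0.198 in XH7, by 0.182 in the difference of changes, by -0.105 in GX and by -0.287 in X between strains. Upper-quartile factors moved it by -0.112 in BSGX001.

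In XH7 the 2 rises became 1 under RLE factors, upper-quartile factors, DESeq2, the replicate block, the fit of the compared groups, an adjusted p of 0.01, the 2-fold limit and the added rows, and 5 with library totals and both limma fits (1 to 2 without a library). The 23 falls became 14 and 15 with limma at pseudocounts of 1 and 0.1 and 5 at 2-fold (17 to 25 without a library). In BSGX001 the 36 falls became 1 at 2-fold (25 to 37 without a library), and the rise stayed at 1 throughout. Between strains, 36 higher in GX became 15 at 2-fold (31 to 37 without a library, with 1 lower in each), and 35 higher in X became 4 at 2-fold (31 to 35 without a library). The 1 lower in X became 2 with each limma fit and 0 at 2-fold. For the difference of changes, 7 positive calls became 16 with library totals, 17 with each limma fit, 4 at an adjusted p of 0.01 and 0 at 2-fold. They ran from 3 (without BSGX001 GX replicate 1) to 10 (without BSGX001 X replicate 2). The 1 negative call became 3 with RLE factors and with DESeq2, 2 with the stricter filter and with the added rows, and 0 with library totals, both limma fits, an adjusted p of 0.01 and 2-fold (0 to 6 without a library, 6 without BSGX001 X replicate 1). The cause was not tested.

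Replicate numbers did not pair the samples: same-numbered libraries deviated from their group means with correlations of -0.28 (XH7), -0.03 (BSGX001), -0.24 (GX) and 0.03 (X). With the replicate block, 21 members fell in XH7 and 35 in BSGX001, and the difference of changes had 6 positive calls. With crossed XH7 GX numbers, these counts were 21, 35 and 7. With 2 samples a group, a missed threshold does not show that a level stayed the same.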
